A study of Gallus gallus with 17 samples.

Results

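Of the 17 chicken adipose arrays, 5 stood apart from all the others: those labelled broiler 2, 3 and 4 and Leghorn 3 and 6. They were chosen by measured values, as the arrays on the positive side of the first principal component of the log2 expression values over the chicken probe sets with a mean above 4. They were set against 6 arrays of the same lines, broiler 1, 5 and 6 and Leghorn 2, 4 and 5. Leghorn 1, whose skeletal muscle transcripts were high, was left out, and the 5 Fayoumi arrays are shown beside the 11. Because the same values chose the arrays, every difference between the 5 and the 6 is a description and carries no test.

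Total RNA came from adipose tissue of male birds aged 3 weeks, extracted with a kit for lipid-rich tissue and hybridised to Affymetrix chicken arrays, with 1 array a sample. The labels give 3 lines: a broiler line kept for meat (6 arrays), the Egyptian line Fayoumi M 5.1 (5 arrays) and the egg-type line Leghorn GHs 13 (6 arrays). All groups share age, sex and tissue, no treatment is named, and neither the fat depot nor the dissection is given. Each transcript is read by short probes summarised as a probe set, and its value is a log2 level as normalised by the authors.

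Adipose tissue is made of lipid-filled adipocytes and, between them, progenitor cells, capillary endothelium, vascular smooth muscle and pericytes, and macrophages, and depots in the body cavity are covered by a mesothelial layer. Adipocytes take up fatty acids freed by lipoprotein lipase at the capillary wall and store them as triglyceride. In a piece of tissue, fewer cells of a type and less RNA per cell cannot be told apart.

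Over 14809 probe sets, 54.0% of the variance fell on the first component. Its scores were 0.428, 0.212 and 0.471 on broiler 2, 3 and 4 and 0.216 and 0.477 on Leghorn 3 and 6, and between -0.194 and -0.126 on the other 12 arrays. Broiler 3 was thus the member nearest to the limit of 0, and broiler 5 the nearest array outside it. The same arrays separated when each line was taken alone. This used the same probe sets and values, so it was largely set by the choice, and the members' side was made positive. Within broiler the first component carried 73.6% of the variance, with 0.488, 0.141 and 0.535 on the members and -0.445 to -0.356 on the rest. Within Leghorn without Leghorn 1 it carried 76.9%, with 0.308 and 0.733 against -0.409 to -0.313.

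Of the 11 arrays, 2 lay with the other line on the second component, which carried 14.8% of the variance. Broiler 1 scored -0.247, among the Leghorn arrays, and Leghorn 2 scored 0.276, among the broiler arrays. Both belong to the 6 others, and results are also given without them. Whether the labels of these 2 arrays were exchanged was not tested; the labels were kept, which touches the values within each line and the comparison of the lines. The plot of component scores shows both facts.

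**Figure D1:**
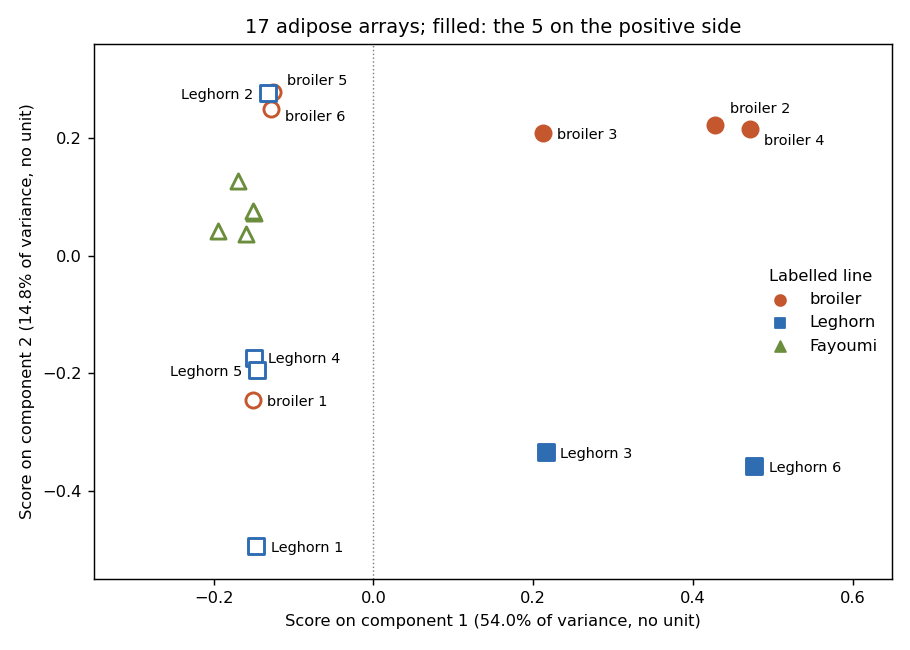
Scores of the 17 arrays on the first component (x axis, 54.0% of variance) and the second (y axis, 14.8% of variance), by labelled line, with the 5 arrays on the positive side filled. The 5 filled points lie at 0.212 or above and all others at -0.126 or below, while broiler 1 and Leghorn 2 sit with the other line on the y axis.

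Measures of the RNA and of the array differed in part between the 5 and the 6. The difference between the 3' and 5' probe sets of an abundant transcript is a common measure of RNA integrity and of the length of the labelled copies. For GAPDH it was 0.927, 1.15 and 1.02 on broiler 2, 3 and 4 and 1.13 and 0.925 on Leghorn 3 and 6, against 1.21 to 1.45 on the 6 others. For ACTB it was 1.49 to 1.92 against 1.91 to 2.35, and for the elongation factor EF1a 0.534 to 0.784 against 0.747 to 0.904, so these overlapped slightly. The same difference for the bacterial poly-A transcripts added before labelling was 1.80 to 1.94 against 1.81 to 1.97. Mean levels of the hybridisation spikes (10.44 to 11.05 against 10.54 to 11.21) and of the poly-A spikes (8.81 to 10.3 against 8.80 to 10.6) covered much the same ranges. The share of chicken probe sets above background was 55.8% to 57.9% against 55.0% to 55.7%. The median log2 value over chicken probe sets was 2.503 to 2.587 against 2.482 to 2.494. The GAPDH difference, the share above background and this median separated the 5 from the 6, and the others overlapped. The part of these measures in the results was not tested.

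**Figure D2:**
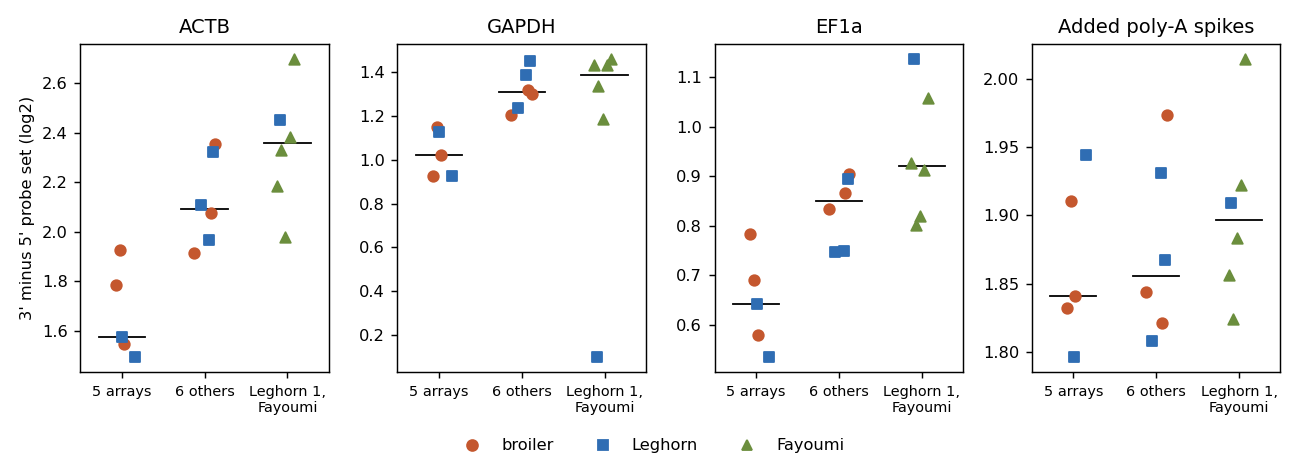
Difference in log2 value between the 3' and 5' probe sets of 3 chicken transcripts and of the added bacterial transcripts (y axes, each on its own scale), for the 5 arrays, the 6 others, and Leghorn 1 with the Fayoumi arrays, with a line at each median. GAPDH values of the 5 reach 1.15 and those of the 6 others start at 1.21, while the values of the added transcripts overlap.

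Of 37693 chicken probe sets, 3038 (8.06%) were higher on all 5 arrays than on all 6 others and 3382 (8.97%) were lower. Of 13008 genes, each represented by its brightest probe set, 1880 (14.5%) were higher and 1677 (12.9%) lower. These shares come from the contrast that chose the arrays, and they are the background for every count below. Genes with higher levels had larger shares. With only probe sets of a mean log2 above 4, 1814 of 7909 genes were higher and 1623 lower. Over the 3702 probe sets with means of 9.281 or above, 24.0% were higher and 24.0% lower. Over those with means from 7.56 to 9.28, 22.8% were higher and 25.8% lower. Beside these, the higher shares of glycolysis (22.7%), fatty acid synthesis (17.6%) and mitochondrial fatty acid oxidation (26.7%) did not stand out. Neither did the lower shares of endothelial markers (25.0%), the tricarboxylic acid cycle (22.2%), peroxisomal genes (23.5%) and endoplasmic reticulum chaperones (27.3%). The same holds for both shares of cell cycle genes, matrix genes, and mitochondrial import and carriers. Lower values were further from the others than higher ones. The difference is taken within broiler and within Leghorn and averaged over both lines; its median was 0.85 for the probe sets that were higher and -1.49 for those that were lower. Over 2 on the log2 scale, 57 probe sets were higher and 847 lower, and over 3, 5 were higher and 160 lower. The median over all genes was 0.01.

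Both lines showed much the same pattern. Over the 14809 probe sets with a mean above 4, the difference within broiler and that within Leghorn had Pearson's r of 0.834 and Spearman's rho of 0.831, and 86.0% had the same sign. These are values across probe sets, which are not independent, and the arrays of both lines were chosen by 1 component, so the agreement is in part set by the choice. The component that chose the 5 was computed with the Fayoumi arrays included. The Fayoumi position and the counts against all 12 others are thus also in part set by the choice. No difference used the Fayoumi arrays, and they lay with the 6 others. With the mean of the 6 set at 0 and that of the 5 at 1, their median position was between -0.0277 and 0.0446 over the probe sets lower on the 5, and up to 0.106 over those higher. Of the probe sets that were higher, 2121 (69.8%) were above all 12 other arrays, and of those that were lower, 2597 (76.8%) were below all 12.

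The 5 arrays were not equally far out. On that scale broiler 2, broiler 4 and Leghorn 6 had median positions of 1.11, 1.18 and 1.25 over the lower probe sets, and broiler 3 and Leghorn 3 of 0.668 and 0.734. Over the higher probe sets the 5 positions were 1.12, 1.20 and 1.22 for broiler 2, broiler 4 and Leghorn 6 and 0.715 and 0.721 for broiler 3 and Leghorn 3. Broiler 3 and Leghorn 3 were together the pair nearest to the 6 others at 69.2% of the lower and 55.0% of the higher probe sets. Without this pair, an alternative chosen after seeing the data, 2983 genes were higher and 2450 lower on the 3 arrays that remained.

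The 12 genes leading the lower side differed by -3.87 to -3.51, and all 5 arrays lay below all 12 others at every one of them. At the top was CA4, a membrane-bound carbonic anhydrase of capillary walls. It was at 6.13, 6.73 and 5.93 on broiler 2, 3 and 4 and at 8.36 and 7.01 on Leghorn 3 and 6, while the 6 others ran from 9.94 through a median of 10.84 to 11.87. The groups did not overlap, and the mean difference of -3.87 is 14.6-fold. VCAM1, an adhesion molecule for leukocytes that activated endothelium displays, was at 8.09, 8.58, 7.10, 10.04 and 8.97 in the same order, against 11.33, 12.25 and 13.32. ERG, a transcription factor that holds endothelial identity, was at 4.84, 6.03, 5.41, 5.90 and 4.96, against 8.67, 9.003 and 9.33. These 3 genes were low on every member, in both lines. FGL2, a fibrinogen-related protein of endothelium and macrophages, differed by -3.57.

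The other 8 have roles in the nucleus or in the handling of RNA and protein, or roles that are less well defined. ERCC5, an endonuclease of nucleotide excision repair, was at 4.45, 5.89, 3.55, 4.77 and 4.10, with the 6 others close together at 8.15, 8.25 and 8.55. ANKRD12, a nuclear ankyrin-repeat protein, was at 2.58, 2.91, 2.49 and 3.15 on the first 4 and at background on Leghorn 6, against 6.16, 6.32 and 6.60. TTC14, a protein with tetratricopeptide repeats, was at 5.15, 5.89, 5.13, 6.36 and 5.48, against 9.11, 9.35 and 9.43. At these 3 genes the highest member was more than 2 below the lowest of the others. RPAP3, which helps assemble RNA polymerase, differed by -3.60, and was at background on 1 of the 5 arrays. DNAJC2, a chaperone at the ribosome, differed by -3.59, TRMT13, a transfer RNA methyltransferase, by -3.54, and PPIG, a cyclophilin found with splicing factors, by -3.51. KIAA0753, a protein of centriolar satellites, differed by -3.81. At all 12 genes the member nearest to the others was broiler 3 or Leghorn 3, and at 11 the lowest was broiler 4 or Leghorn 6.

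The 12 genes leading the higher side differed by 2.62 to 4.14 and were more uneven. The median SD over the 5 arrays was 1.26 for these genes and 0.58 for the 12 leading lower genes, and only 3 of the 12 were above all 12 other arrays. SPINK5, a serine protease inhibitor of epithelia, was at 7.56, 8.54 and 14.04 on broiler 2, 3 and 4 and at 10.51 and 12.25 on Leghorn 3 and 6, against 5.70, 6.76 and 7.14 on the 6 others. The groups did not overlap, yet the members spanned far more than the others, and Leghorn 1 was at 10.62. TF, the iron carrier transferrin, was at 10.38, 10.92, 13.48, 12.36 and 13.78, against 9.01, 9.75 and 10.18, with Leghorn 1 at 12.83. CLDN1, a claudin of tight junctions, was at 8.77, 9.72, 9.46, 10.82 and 11.34, against 5.94, 6.94 and 7.56. These 3 are genes with high levels in epithelia or liver, and each was higher on Leghorn 1 than on all 6 others.

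C4BPS, a secreted regulator of complement, was at 7.45, 10.46, 7.48, 7.28 and 9.04, against 3.28, 4.80 and 5.64. The Fayoumi arrays were at 7.29 to 9.53, as high as the members, so this gene set the 5 apart within their own lines only. FBLN7, a fibulin of the matrix, was at 8.75, 9.98, 8.90, 8.09 and 8.70, against 4.45, 6.16 and 7.18. AKR1D1, a steroid reductase of bile acid synthesis, differed by 2.94. The Fayoumi arrays ran from 6.77 to 8.49 at FBLN7 and from 3.65 to 7.17 at AKR1D1, and overlapped the members at both. Signalling molecules were also among the 12. WNT2B, a Wnt ligand, was at 6.14, 7.83 and 7.96 on broiler 2, 3 and 4 and at 3.61 and 5.19 on Leghorn 3 and 6, against background, 2.81 and 3.46, and so was further out in broiler. FGF16, a fibroblast growth factor, was at 3.33, 4.46, 4.72, 6.32 and 6.37, against 2.38, 2.56 and 2.63. AVD, avidin, which chicken cells secrete in inflammation, differed by 2.65, and TNFAIP6, a hyaluronan-binding protein induced in inflammation, by 2.62. At TNFAIP6 the Fayoumi arrays reached 6.99, above the lowest member at 6.74. Of the 12 leading higher genes, 8 were above all Fayoumi arrays on all 5.

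The last of the 12 are smooth muscle genes. KCNMB1, a potassium channel subunit of smooth muscle, was at 9.65, 6.87, 7.09, 7.13 and 7.20, against 4.36, 4.46 and 5.90. ACTG2, the enteric smooth muscle actin, was at 12.0004 on broiler 2 and at 3.93, 3.57, 4.31 and 5.84 on broiler 3, broiler 4, Leghorn 3 and Leghorn 6, against 2.77, 3.04 and 3.24. The groups did not overlap, but 1 array, broiler 2, gave most of the difference within broiler, which was 3.54. The plot of the leading genes shows the tight lower side and the scattered higher side.

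**Figure D3:**
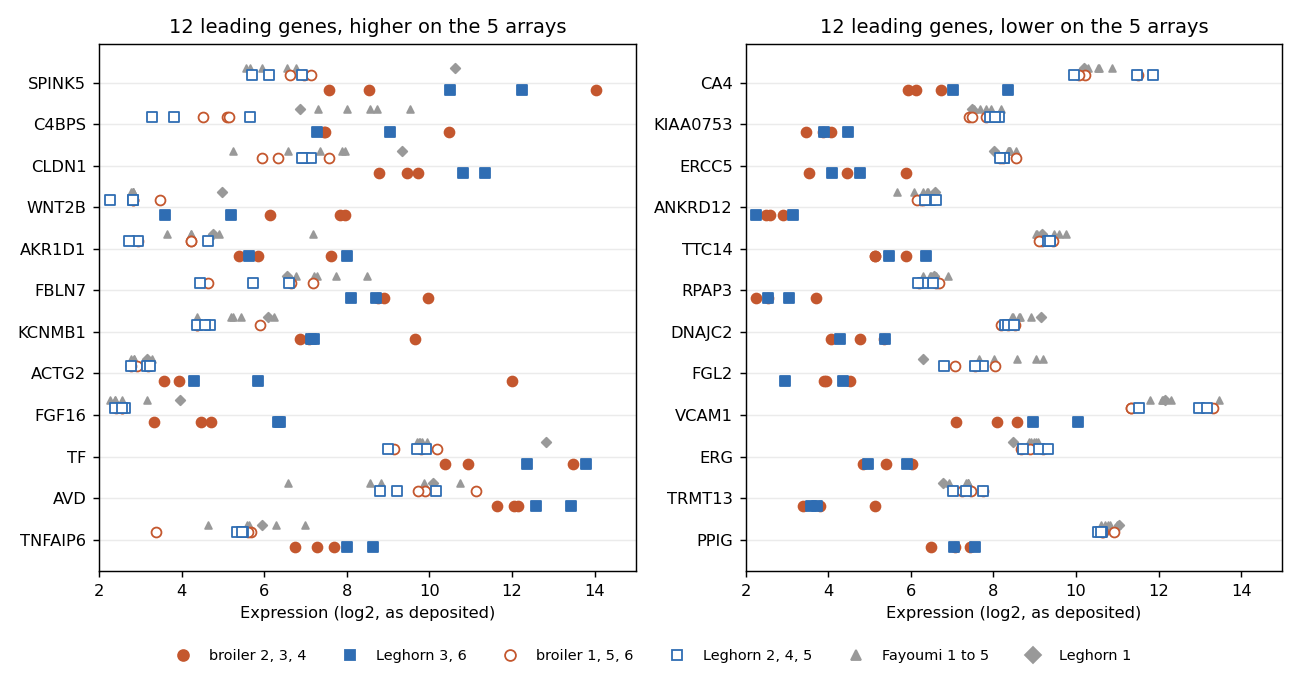
Log2 expression on every array (x axis) of the 12 genes leading the higher side (left) and the 12 leading the lower side (right), with filled points for the 5 arrays, open points for the 6 others and grey points for Leghorn 1 and the Fayoumi arrays. On the right the filled points lie below all others at each gene, and on the left single arrays such as broiler 4 at SPINK5 (14.04) and broiler 2 at ACTG2 (12.0004) lie far out.

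Counts over 33 lists of genes with a shared function describe the state by function. The largest share on the lower side was that of ubiquitin ligases and deubiquitinases, which attach and remove the ubiquitin tag. Of 49 measured members, 32 were lower on all 5 arrays and 2 higher, with a median difference of -1.12; over all genes the shares were 12.9% and 14.5%. The list's median on single arrays, relative to the mean of the 6 others at each gene, was -1.18, -0.52 and -1.37 on broiler 2, 3 and 4, and -0.80 and -1.67 on Leghorn 3 and 6. On the 6 others it lay between -0.0137 and 0.0455, and on the Fayoumi arrays between -0.0199 and 0.0626. CUL2, a cullin scaffold of ubiquitin ligases, was at 5.43, 6.16, 5.51, 7.01 and 4.94, against 9.24, 9.33 and 9.47. Its 2 other probe sets above background overlapped between the groups. USP8, a deubiquitinase of endosomes, was at 8.18, 9.15, 7.90, 8.96 and 8.20, against 10.99, 11.20 and 11.42.

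Splicing and RNA-binding proteins followed, with 21 of 42 lower and 5 higher (median -0.52). LUC7L3, a splicing factor that contacts the 5' splice site machinery, was at 7.45, 8.19, 7.03, 7.97 and 6.89, against 10.73, 10.96 and 11.09. PNN, the splicing-associated protein pinin, was at 6.33, 7.50, 6.28, 7.63 and 6.58, against 9.71, 9.95 and 10.28. The lower members include the SR proteins SRSF1 (-0.47), SRSF2 (-0.47), SRSF5 (-1.92), SRSF6 (-0.92) and SRSF11 (-1.33), chosen after their values were seen. The 5 that were higher were HNRNPA1 (0.66), CLK2 (0.71), SF3A1 (0.82), PRPF8 (0.82) and SF3B3 (0.93), of which SF3A1, PRPF8 and SF3B3 are core parts of the spliceosome; SF3B1, another core part, was lower (-0.67). The probe sets of HNRNPA1 disagreed: besides the higher one, 2 were lower without overlap (-1.20 and -1.26). Of 49 chromatin modifiers, 21 were lower and 3 higher (median -0.35). BAZ2B, a bromodomain protein, was at 5.66, 7.54, 6.16, 7.71 and 6.53, against 9.73, 9.78 and 10.19. BPTF, the largest subunit of a nucleosome remodeller, was at 4.37, 6.19, 4.36, 5.29 and 3.90, against 7.54, 7.80 and 8.23. The 3 that were higher were KDM5B (0.61), SMARCA4 (0.96) and NCOA2 (1.18).

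On the higher side stood genes for the ribosomes, the respiratory chain, lysosomes, protein secretion and the proteasome. Of 48 proteins of the mitochondrial ribosome, 26 were higher and 1 lower, MRPS5 (-0.36), with a median of 0.58. The list's median was 0.66, 0.33, 0.75, 0.32 and 0.67 on the 5 arrays and between -0.0817 and 0.0629 on the 6 others. MRPS2, a protein of its small subunit, was at 9.15, 8.48, 8.97, 8.44 and 9.34, against 7.70, 7.75 and 7.96. MRPS14, also of the small subunit, had the largest difference of the list (1.12), but its arrays overlapped: Leghorn 3 was at 9.25 and the highest of the 6 others at 9.85. Of 42 respiratory chain subunits, 19 were higher and 1 lower (median 0.49). NDUFS8, an iron-sulfur subunit of complex I, was at 11.63, 10.72, 11.48, 10.36 and 11.08, against 9.83, 10.01 and 10.23, and the lower one was NDUFS4, an accessory subunit of the same complex (-1.07). Probe sets of COX6C (-2.0002 and 0.54), COX7C (-2.04 and 0.29) and NDUFB3 (-1.15 and 0.64) lay in opposite directions, each without overlap.

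Of 59 cytosolic ribosomal proteins, 26 were higher and none lower, with a small median of 0.27. RPL35A, of the large subunit, was at 12.88, 12.91, 13.15, 12.73 and 13.35, against 12.24, 12.29 and 12.43. RPL31 had a larger difference of 0.96, but its arrays overlapped, and its other probe set above background lay in the opposite direction without overlap. Whether probe sets of different ribosomal protein genes share signal was not tested. Against the Fayoumi arrays 12 of the 59 were higher and 1 lower, in place of 26 and 0. Over all genes 16.3% were higher and 14.3% lower in that comparison.

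Of 41 genes of autophagy and the lysosome, 21 were higher and 3 lower (median 0.60). Those higher include HEXA, a hexosaminidase (1.48), TPP1, a peptidase (1.28), the cathepsin genes CTSS (1.22) and CTSK (1.19), and the proton pump subunit ATP6V0D1 (0.98), chosen after their values were seen. The 3 lower ones act in the formation of autophagosomes. BECN1, beclin 1, was at 8.51, 8.88, 8.31, 9.04 and 7.53, against 10.72, 10.83 and 10.91. ATG5 was at 7.72, 8.86, 7.69, 8.70 and 7.39, against 9.44, 9.73 and 9.88, and ATG3 differed by -0.96. ATG9A, ATG12 and ATG13, of the same process, were among the 21 that were higher, with differences of 0.50, 0.72 and 0.87.

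The secretory pathway showed the same split, with 16 of 33 higher and 4 lower (median 0.45). SRP54 and SRP19, which belong to the particle that brings nascent secretory proteins to the endoplasmic reticulum, were the named members. SRP54 was at 6.75, 7.65, 6.69, 7.87 and 5.78, against 9.51, 9.70 and 9.92, and SRP19 differed by -1.83. Other proteins of the same particle, SRP14 (0.71) and SRP72 (0.52), were higher on all 5. Of 30 proteasome genes, 11 were higher and 2 lower (median 0.38). PSMD10, which helps assemble the regulatory cap, was at 9.69, 9.48, 9.72, 9.12 and 9.80, against 8.38, 8.43 and 8.91, and PSMD12, a subunit of the cap, was lower by -1.34 without overlap. In the particle of SRP54 and SRP14, members of 1 complex thus lay in opposite directions.

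Of 31 genes of oxidative stress and glutathione, 11 were higher and 2 lower (median 0.50). The 2 lower were CAT, catalase (-1.42), and GCLC, of glutathione synthesis (-1.25). The named members are the metallothioneins MT3 and MT4, which bind zinc and copper; they differed by 2.63 and 1.68, and both overlapped. MT3 was at 10.22, 7.59, 7.63, 10.95 and 9.19, against 5.51, 6.39 and 8.79. Glycolysis had 5 of 22 higher and 1 lower (median 0.40), and 20 of the 22 differences were positive. ALDOC, an aldolase, was at 10.80, 9.68, 9.93, 9.62 and 10.38, against 9.14, 9.31 and 9.33, and PGM2, which converts pentose and hexose phosphates, was lower by -1.56.

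**Figure D4:**
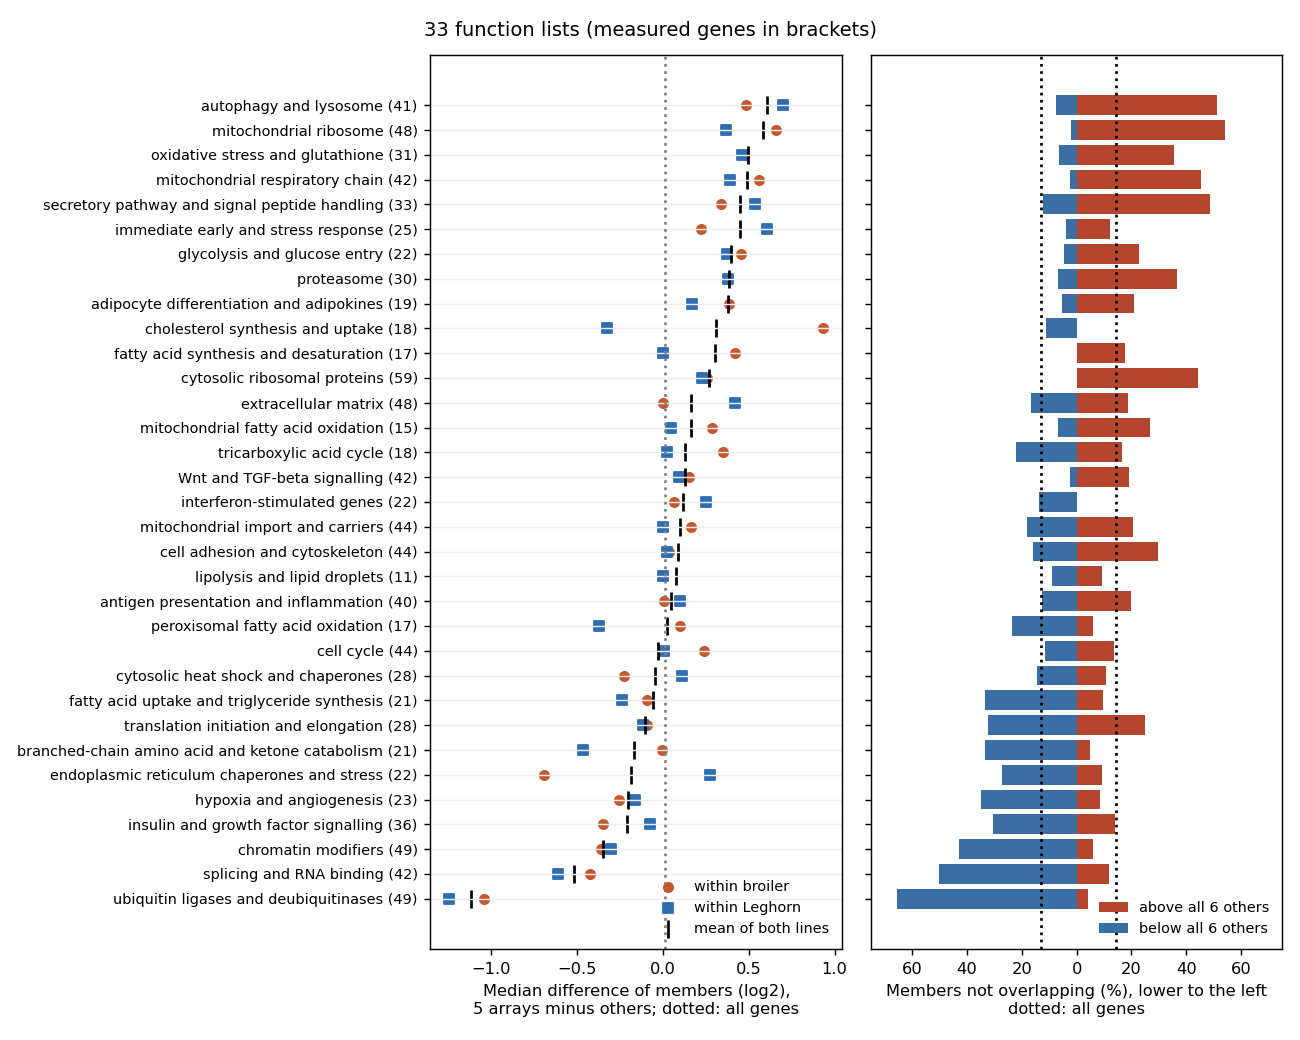
For 33 function lists with the number of measured genes in brackets, the median difference of the members in log2 within broiler, within Leghorn and as their mean (left x axis), and the percent of members above or below all 6 others (right x axis, lower to the left); dotted lines give the values for all genes. Ubiquitin ligases have 65.3% of members below, and the mitochondrial ribosome 54.2% above.

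Other lists were divided. Of 28 translation factors, 7 were higher and 9 lower (median -0.10). EIF2S2, a subunit of the factor that brings the initiator transfer RNA, was at 9.60, 10.01, 9.22, 10.23 and 8.69, against 11.12, 11.23 and 11.41, and EIF5B, which joins the ribosomal subunits, differed by -1.62. Of 22 chaperone and stress genes of the endoplasmic reticulum, 6 were lower and 2 higher, and the lines differed in the median, which was -0.69 within broiler and 0.28 within Leghorn. HSP90B1, the chaperone GRP94, was at 10.47, 11.92, 10.76, 12.42 and 11.03, against 12.97, 13.29 and 14.16. DNAJB9, a co-chaperone there, differed by -1.94. Among 28 cytosolic chaperones 3 were higher and 4 lower: HSPA4L differed by -2.39, while HSPB1, the small heat shock protein, was at 11.30, 9.03, 9.03, 9.67 and 10.48, against 7.14, 7.65 and 8.56. Of 44 cell cycle genes, 6 were higher (13.6%) and 5 lower (11.4%), near the shares of 14.5% and 12.9% over all genes. SMC4, a condensin subunit, and MKI67, the proliferation marker Ki-67, were lower by -3.04 and -3.002. MKI67 was at 6.08, 6.56, 4.99, 5.95 and 4.72, against 7.65, 8.75 and 9.04. The 6 higher ones include PCNA (0.59), TK1 (1.12) and RRM1 (1.27), which act in DNA replication and nucleotide supply and were chosen after their values were seen.

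Of 18 genes of the tricarboxylic acid cycle, 3 were higher and 4 lower. SUCLA2 and SUCLG2, subunits of succinyl-CoA ligase, were lower; SUCLA2 was at 7.07, 7.80, 6.49, 7.18 and 3.74, against 8.37, 8.59 and 8.93, and SUCLG2 differed by -1.29. Of 44 import and carrier genes, 9 were higher (20.5%) and 8 lower (18.2%). OPA1, which fuses the inner membrane, was at 7.25, 8.12, 7.02, 7.48 and 6.02, against 9.25, 9.64 and 10.05, and the carrier SLC25A36 differed by -1.66. Of 15 genes of mitochondrial fatty acid oxidation, 4 were higher and 1 lower, CPT2, which frees fatty acids from carnitine (-1.11). DECR1, for unsaturated fatty acids, differed by -1.35 with overlap. Of 17 peroxisomal genes, 4 were lower and 1 higher. ABCD3, a fatty acid transporter of the peroxisome, was at 4.78, 5.41, 4.85, 5.93 and 3.40, against 6.40, 7.32 and 7.73, and PEX2, for peroxisome assembly, differed by -1.82. Of 21 genes of branched-chain amino acid and ketone breakdown, 7 were lower and 1 higher. MCCC1 and MCCC2, which form methylcrotonyl-CoA carboxylase, differed by -1.89 and -1.54.

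Among lipid genes, fatty acid uptake and triglyceride synthesis had the most members on the lower side, 7 of 21, with 2 higher (median -0.06). ACSL1, which activates fatty acids, was at 10.28, 10.31, 10.45, 10.72 and 8.97, against 11.77, 12.12 and 12.41. ACSL5 (-1.64), the transporter CD36 (-1.29), AGPAT3 (-1.04), ACSL4 (-0.89), LPL, the lipoprotein lipase (-0.69), and FABP4, the adipocyte fatty acid binding protein (-0.24), were the rest of the 7, named as a complete set after their values were seen. GPIHBP1, which in mammals anchors lipoprotein lipase to capillaries, had the largest difference of the list, but only within Leghorn. It was at 3.62, 3.93 and 5.52 on broiler 2, 3 and 4 and at 9.38 and 11.26 on Leghorn 3 and 6. The 6 others were between 3.36 and 5.52, Leghorn 1 was at 10.49, and the difference was -0.13 within broiler and 6.28 within Leghorn. The difference between the lines was not tested.

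Few genes of lipid synthesis were non-overlapping. Of 17 genes of fatty acid synthesis 3 were higher and none lower, and of 18 genes of cholesterol synthesis and uptake 2 were lower and none higher. The cholesterol list's median was 0.93 within broiler and -0.32 within Leghorn, and on single arrays it ran from 1.22, 0.06 and 1.28 on broiler 2, 3 and 4 to -0.65 and 0.11 on Leghorn 3 and 6. On the 6 others it ran from -0.48 on broiler 1 to 0.83 on Leghorn 2. INSIG1, the sterol sensor that holds back this pathway, was at 11.97, 12.29, 12.20, 11.67 and 10.48, against 12.64, 12.81 and 13.70, and STARD4, a sterol carrier, differed by -1.61. ELOVL1, an elongase of long fatty acids, was higher by 1.09 and ELOVL6, an elongase of palmitate, differed by -1.64 with overlap. Of 11 lipolysis and droplet genes, MGLL, the monoglyceride lipase, was higher at 8.24, 9.42, 8.94, 8.57 and 9.38, against 6.67, 7.11 and 7.80, and PDE3B, through which insulin restrains lipolysis, was lower by -1.12. Of 19 genes of adipocyte differentiation and adipokines, 4 were higher and 1 lower. CEBPB, an early factor of differentiation, was at 10.53, 10.98, 11.57, 11.19 and 12.005, against 9.34, 9.83 and 10.04. PPARG, the receptor that drives fat cell formation, was at 9.14, 8.89, 8.86, 8.25 and 9.05, against 8.82, 10.02 and 11.04, and so overlapped. Its 2 other probe sets differed by -2.41, without overlap, and -1.78, with overlap.

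Of 36 genes of insulin and growth factor signalling, 11 were lower and 5 higher (median -0.21). GHR, the growth hormone receptor, was at 5.94, 6.33, 5.82, 7.07 and 4.68, against 7.50, 8.23 and 8.42. The binding protein IGFBP2 was at 10.78, 11.25, 11.68, 9.73 and 10.71, against 7.36, 8.003 and 9.08. The Fayoumi arrays were at 10.93 to 12.70 for IGFBP2, overlapping the upper part of the members' range. Of 42 Wnt and TGF-beta genes, 8 were higher and 1 lower; DKK3, a secreted protein of the Dickkopf family, was at 10.06, 10.65, 11.31, 10.55 and 10.96, against 8.50, 8.93 and 9.77. Of 23 genes of hypoxia and angiogenesis, 8 were lower and 2 higher. ANGPT2, angiopoietin 2, which loosens vessels, was at 7.59, 8.53, 8.53, 8.20 and 7.59, against 10.38, 10.77 and 11.13, and FLT1, a receptor for vascular endothelial growth factors, was at 4.70, 5.50, 4.88, 5.69 and 4.70, against 6.78, 7.44 and 7.97.

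Matrix and adhesion genes lay in both directions. Of 48 matrix genes, 9 were higher (18.8%) and 8 lower (16.7%), against 14.5% and 12.9% over all genes. BGN, the proteoglycan biglycan, was at 6.61, 7.52, 6.47, 6.72 and 4.34, against 8.47, 9.37 and 10.20, and ELN, elastin, was at 6.23, 7.22, 8.13, 7.25 and 8.62, against 4.49, 5.27 and 6.13. With elastin, the enzymes LOX (1.56), LOXL1 (1.33) and LOXL2 (1.15), which cross-link elastin and collagen, were higher on all 5; the 3 were chosen after their values were seen. Of 44 adhesion and cytoskeleton genes, 13 were higher and 7 lower. ITGA1, an integrin for collagen, was at 7.79, 8.62, 8.01, 9.23 and 8.71, against 11.31, 11.61 and 11.77.

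Of 40 genes of antigen presentation and inflammation, 8 were higher and 5 lower; FAS, a death receptor, was at 5.22, 6.85, 5.46, 7.17 and 5.55, against 8.80, 9.29 and 9.90, and the cytokine IL18 differed by -2.69. The other FAS probe set differed by -0.20 within broiler and 0.67 within Leghorn, with overlap. Of 22 interferon-stimulated genes, 3 were lower and none higher. IFIH1, the RNA sensor MDA5, was at 2.89, 3.51, 3.00, 2.88 and 2.35, against 5.84, 6.15 and 6.37, while IFIT5 differed by -2.17 with overlap. Of 25 immediate early and stress genes, 3 were higher and 1 lower, KLF6, at 11.23, 11.80, 11.16, 12.55 and 11.51, against 12.61, 12.99 and 13.40. NR4A2, an orphan nuclear receptor, differed by 1.30 with overlap.

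The brightest adipocyte markers were high on the 5 arrays and on the 6 others. Of 17 measured adipocyte markers, 1 was higher and 2 lower, and the median difference was 0.09. This averages lines that went opposite ways, with medians of 0.28 within broiler and -0.18 within Leghorn. The list's summed level, set mostly by its brightest genes, was 17.41 to 17.75 on the 5 and 17.56 to 17.64 on the 6 others. FABP4 was at 15.96, 15.88, 15.80, 16.03 and 15.72, against 16.06, 16.12 and 16.18, near the top of the scale on every array. ADIPOQ, adiponectin, was at 13.27, 13.03, 13.22, 12.86 and 13.05, against 12.07, 12.66 and 12.97. CFD, the adipocyte complement factor adipsin, was the one that was higher (0.93). RBP4 was at background on all 11 arrays.

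Of 20 endothelial markers, 5 were lower (25.0%) and none higher, and the median was 0.03. Over all probe sets with means of 7.56 to 9.28, 25.8% were lower, so the count alone does not stand out. The 5 lower markers are given for their size. The 5 were ERG (-3.56), FLT1 (-2.29), PECAM1 (-1.85), LYVE1 (-1.38) and CDH5 (-1.33). PECAM1, an adhesion molecule of endothelial junctions, was at 11.01, 12.41, 11.44, 12.32 and 11.13, against 13.35, 13.54 and 13.64, and CDH5, the endothelial cadherin, was at 11.76, 12.55, 11.70, 12.73 and 12.17, against 13.35, 13.54 and 13.78. These 2 are among the brightest of the list, and the summed level was 14.67 to 15.01 on the 5 and 15.38 to 15.65 on the 6 others. The other 15 overlapped, with differences from -0.75 (KDR) to 0.97 (PROX1), among them VWF (-0.45), TIE1 (0.60) and EGFL7 (0.40). ROBO4 was at background on all 11 arrays.

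Of 14 macrophage markers, 6 were higher and none lower, with a median of 0.62. The 6 were C1QA (1.37), C1QB (1.11) and C1QC (1.46), which form the complement protein C1q, CSF1R (0.72), the receptor macrophages need, CTSS (1.22), a lysosomal protease, and MERTK (1.04), a receptor for dying cells. C1QC was at 10.73, 11.08, 11.70, 11.89 and 12.04, against 9.26, 10.21 and 10.63. The summed level was 13.80 to 14.72 against 12.75 to 13.66. MRC1, the mannose receptor, went the other way by -1.16, and MARCO, a scavenger receptor, differed by -0.69 within broiler and 1.85 within Leghorn.

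Of 11 smooth muscle and pericyte markers, 5 were higher and none lower: KCNMB1, ACTG2, TAGLN (2.24), CSPG4 (1.40) and RGS5 (0.93). RGS5, a pericyte regulator of G proteins, was at 12.40, 11.79, 12.34, 11.80 and 12.20, against 10.65, 11.24 and 11.54. Broiler 2 stood out among the 5. It had TAGLN, transgelin, at 11.56 where the 4 other members were at 6.75 to 7.83, and DES, desmin, at 9.32 where they were at 3.58 to 5.07. MYH11, the smooth muscle myosin, was at 12.10, 9.14, 6.19, 9.33 and 8.17, against 9.30, 11.08 and 11.63. MYLK, of the same list, was at 13.56, 10.31, 8.90, 10.71 and 9.69, against 10.85, 11.51 and 11.92. All members but broiler 2 were thus below the 6 others at MYLK. The differences of MYH11 and MYLK were -1.78 and -0.91, with overlap. The summed levels overlapped, at 12.54 to 14.93 against 12.06 to 13.33.

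Of 17 progenitor markers, 5 were higher and 1 lower (median 0.46). PRRX1, a transcription factor of limb and body mesenchyme, was at 9.17, 10.34, 10.24, 9.54 and 9.49, against 6.49, 7.53 and 8.58, and its 2 other probe sets above background agreed in direction without overlap. LOX (1.56), THY1 (1.14), TWIST1 (0.86) and GSN (0.46) were the other 4, and the lower one was DCN, the proteoglycan decorin (-0.82). Of the 17 differences, 11 were positive and 6 negative. Among the negative ones FAP (-1.47) and LUM (-1.24) were larger in size than DCN, with overlap. The summed level overlapped, at 15.97 to 16.42 against 15.85 to 16.24.

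Mesothelial and epithelial markers set some of the 5 apart and not others. Of 12 measured, CLDN1 and LRRN4 (1.74) were higher and none lower, and the summed level was 10.27 to 13.37 against 8.48 to 9.66. KRT7, a keratin of simple epithelia, was at 11.33, 6.34, 9.68, 9.40 and 12.60, against 5.01, 5.78 and 8.03. The epithelial adhesion molecules CDH1 and EPCAM were at background on broiler 2, at 3.10 and background on broiler 3, and high on broiler 4 (8.24 and 8.32), Leghorn 3 (7.32 and 6.92) and Leghorn 6 (9.54 and 8.53). On the 6 others CDH1 reached 6.04 and EPCAM 6.81, both on broiler 1, with medians at background, and on Leghorn 1 they were at 8.50 and 9.02. ALDH1A2, a mesothelial retinoic acid enzyme, went the other way (-1.60, with overlap). The part of these cells in the result was not tested.

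**Figure D5:**
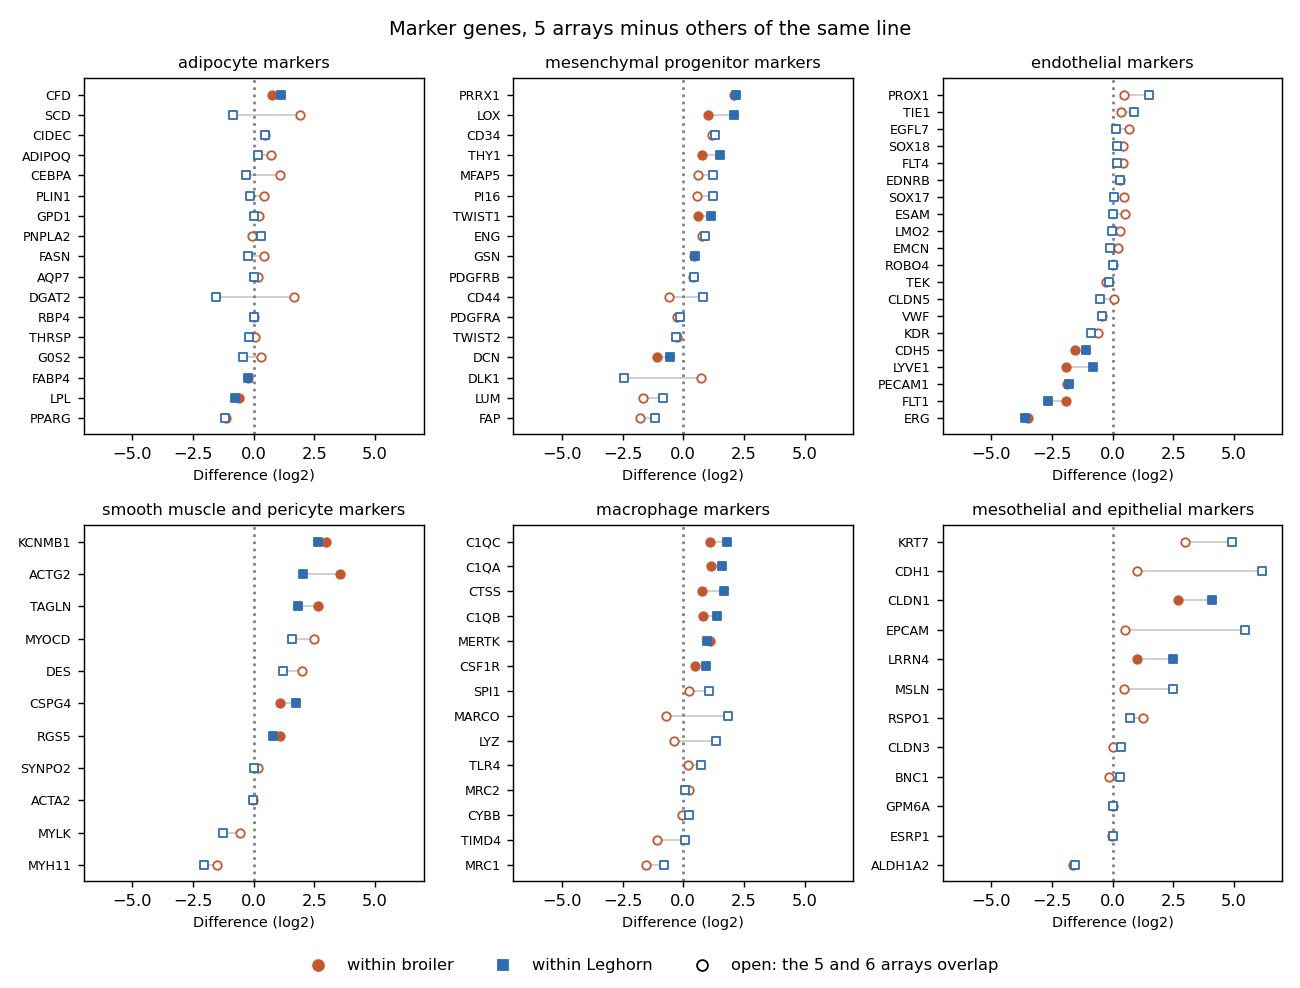
Difference in log2 expression between the 5 arrays and the others of the same line (x axes) for each measured gene of 6 marker lists, within broiler and within Leghorn; filled points mark genes whose 5 and 6 values do not overlap. The C1q genes are above 0 and ERG, FLT1, PECAM1, LYVE1 and CDH5 below 0 in both lines, while the mean differences of CDH1 and EPCAM are 0.995 and 0.506 within broiler and 6.15 and 5.46 within Leghorn.

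Markers of other tissues differed at single genes. Of 23 skeletal muscle markers none was non-overlapping; their summed level was 8.36 to 12.36 on the 5, 7.95 to 9.82 on the 6 others and 18.63 on Leghorn 1. ACTA1, the skeletal actin, was at 12.11, 8.90, 6.91, 10.07 and 10.71, against 6.29, 8.64 and 9.35, and MB, MYL2, MYL3 and TNNI1 were at background on all 11 arrays. No erythrocyte marker (of 12) was non-overlapping, with summed levels of 14.03 to 14.74 against 14.30 to 14.88; CA2, a carbonic anhydrase, differed by -0.92 with overlap. Of 11 granulocyte and thrombocyte markers, AVD and ITGB3 (1.33) were higher, and CD9, a tetraspanin, differed by 2.82 with overlap; the summed level was 12.03 to 14.71 against 10.98 to 12.26. T cell markers summed to 10.95 to 12.08 against 10.59 to 12.10, with TARP, a T cell receptor gamma transcript, lower (-1.61) and IL2RG higher (1.40). B cell markers summed to 9.76 to 10.68 against 10.45 to 10.84, with BCL6, a repressor in germinal centre cells, lower (-2.01) and BTK higher (1.31).

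Of 15 liver markers, only TF was higher. APOB, FGA, FGB, F2 and HAO1 were at background on all 11 arrays. HPX, the haem carrier hemopexin, was at 2.87 and 2.79 on broiler 2 and 3, 6.07 on broiler 4, 5.43 on Leghorn 3 and 9.42 on Leghorn 6, against background, 2.74 and 3.33, and overlapped. The list's summed level was 12.80 to 15.32 against 11.33 to 14.08. KRT14, a keratin of skin, was at 7.31 on Leghorn 6 and at 2.36 to 3.08 on the 4 other members, while TP63 and KRT75 of the same list were at background on all 11, and the list summed to 6.50 to 10.22 against 6.44 to 8.95. SPP1, osteopontin, was at 8.53 on Leghorn 6 and 4.38 to 5.56 on the other 4, in a bone and cartilage list of 15 in which none was non-overlapping and which summed to 11.81 to 13.65 against 11.01 to 12.51.

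GCG, glucagon, of a list for intestine and pancreas, was at 4.75, 6.39, 4.46, 4.53 and 4.47, against 6.59, 6.87 and 7.88. CPA1, CTRC and FABP2 of that list were at background on all 11, and it summed to 7.40 to 8.28 against 8.06 to 8.77. PMP22, a myelin protein of Schwann cells that other cells also make, was at 12.18, 12.76, 12.67, 12.52 and 12.004, against 11.004, 11.48 and 11.65; the neural list summed to 12.68 to 13.29 against 12.38 to 12.55, with GFAP, SNAP25 and TH at background. CYP17A1, of steroid synthesis, was at 6.29, 6.05 and 7.29 on the 3 broiler members and 4.32 and 4.81 on those of Leghorn, against 3.93, 4.38 and 4.63, and overlapped. Its list for kidney, adrenal and gonad summed to 6.87 to 8.16 against 6.72 to 6.89, with UMOD and NR5A1 at background.

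Where 2 or more probe sets of 1 gene did not overlap between the groups, they mostly pointed the same way. Of 7334 genes with several probe sets, 1058 had 2 or more that did not overlap, and in 1018 these shared a direction. In 40 genes (3.78%) they were opposed, such as MICU3, a mitochondrial calcium uptake protein, with differences from -2.73 to 0.70. Genes with 1 non-overlapping probe set beside flat ones are outside the 1058. One is KIAA0753, whose other probe set, near background, differed by -0.07 with overlap. The size of the difference could also vary within a gene. All 7 probe sets of ATRX, a chromatin remodeller, were lower, by between -0.74 and -3.96; this gene was chosen after its values were seen. By design source, 9.94% of the 21862 probe sets drawn from transcript collections were higher and 9.54% lower. Of the 15831 drawn from predicted genes, 5.46% were higher and 8.19% lower.

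The lines themselves, whose labels the choice of arrays did not use, were compared at the same genes with limma over all 17 arrays, with Benjamini-Hochberg adjustment over 37693 probe sets. Leghorn minus broiler had 0 probe sets with an adjusted p under 0.05 (0%) and 1840 at an unadjusted p under 0.05. Fayoumi minus broiler had 269 (0.714%). None of the 103 genes chosen for naming passed in either comparison; at an unadjusted p under 0.05 there were 2 and 15 of them. The lowest adjusted p among them was 0.214 for MT4 in Fayoumi minus broiler, where the means were 9.47 in Fayoumi and 11.33 in broiler. The 103 were chosen for large differences between arrays inside broiler and inside Leghorn, which widens their spread within a line. That they did not pass was thus largely set by the choice. For SPINK5 the SD was 2.80 in broiler, 2.77 in Leghorn and 0.54 in Fayoumi. Broiler had 3 of the 5 arrays, Leghorn 2 and Fayoumi none, so line and state cannot be fully told apart in Fayoumi minus broiler. With trended and robust variances in limma the count for Leghorn minus broiler was also 0. Without the 5 arrays 1 of the 103 passed, IGFBP2, higher in Fayoumi than in broiler by 3.29 (SE 0.45, limma adjusted p = 0.0137). Without broiler 1 alone the counts over all probe sets were 118 for Leghorn minus broiler and 613 for Fayoumi minus broiler, and without broiler 1 and Leghorn 2 they were 661 and 686, with none of the 103 among them. The labels call arrays of a line biological replicates without saying how the birds were taken, so a p-value reflects only how far these arrays differ among themselves, which may be technical.

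Without broiler 1 and Leghorn 2, the arrays that lay with the other line, 2152 genes (16.5%) were higher and 1824 (14.02%) lower. The ubiquitin list then had 33 lower and 3 higher, splicing 23 and 7, the mitochondrial ribosome 29 higher and 2 lower, and autophagy and lysosome again 21 and 3. Set against the 5 Fayoumi arrays in place of the 6, 2125 genes (16.3%) were higher and 1866 (14.3%) lower. The ubiquitin list had 32 lower and 3 higher in that comparison, the mitochondrial ribosome 26 higher and none lower, and macrophage markers 4 higher and 2 lower.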

How the data were processed

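The values are log2 expression levels per probe set, normalised by the authors before deposit; they name R 2.13.2, RMA and GCRMA, per the submitters' processing notes, without saying which made these values. The deposited table holds 38535 probe sets, of which 37693 are for chicken; log2 values ran from 2.26 to 16.2. Array number, not read depth, limits precision. Background was 2.31, a level that 95% of 74 blank or reporter probe sets lie under. Symbols came from the platform annotation, updated by RefSeq names (GRCg7b): 27166 probe sets had 1 symbol, 177 several and 10350 none.

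Components were computed over probe sets with a mean above 4. A difference is the mean of the differences within broiler and within Leghorn. A gene was represented by its brightest probe set, and a summed level is the log2 of the sum of a list's linear values. Named genes had 1 symbol; the leading ones were the 12 in each direction with the largest difference among genes that did not overlap, had 1 direction in both lines and had a mean on their higher side at or above the median probe set. The function lists added 2 members each and the marker lists 1 each, those with the largest difference in size, if above background on at least 5 of the 11 arrays, with or without overlap. The values of 1 gene under this rule are not reported here. Any other gene was named with its values in view, whether or not this is said beside it. The arrays, lists and tests were chosen with earlier results of these data known.

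Lines were compared with limma 3.58.1 in R 4.3.3 over 17 arrays, Benjamini-Hochberg adjusted, after the method was tested on simulated data. The labels pair no arrays.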

Additional observations from a re-analysis of the deposited data

Results flagged for a closer look

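Single arrays lay far from the rest of their labelled line at 12 of 318 combinations of a line with a named gene or 1 of 3 control differences between 3' and 5' probe sets; chance flags about 1 in 20 such groups. In Leghorn all 4 were on Leghorn 6, where PGM2 was at 6.24, GHR at 4.68, KRT14 at 7.31 and SPP1 at 8.53. In broiler, SPINK5 was at 14.04 and HPX at 6.07 on broiler 4, and ACTG2 was at 12.0004 on broiler 2. In Fayoumi the values were ERCC5 8.54 on Fayoumi 4, TRMT13 6.93 and SMC4 8.04 on Fayoumi 1, and WNT2B 2.78 and KRT14 2.37 on Fayoumi 5; the WNT2B and KRT14 values differ from the other Fayoumi arrays by under 0.04.

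Outside the chicken probe sets and the controls, 2 probe sets were above a log2 level of 4 on some array. The first reached 14.6; it was at 14.52 on broiler 1, where the other broiler arrays ran from 4.39 to 9.15, and at 4.83 on Leghorn 2, where the rest of that line ran from 14.29 to 14.64. The second reached 6.04.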

How the results depend on the processing

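The counts of genes and probe sets higher or lower on the 5 arrays stayed within 1.5 times of those reported. This held under 7 alternatives and with each of the 11 arrays left out in turn. It was in part set by the method. Pooling the lines changes the difference and not the count, and leaving arrays out can only keep or raise a count. Leaving out 1 array gave 1933 to 2298 genes higher and 1693 to 1985 lower, 3149 to 3826 probe sets higher and 3417 to 3989 lower, and 31 to 34 lists with a median above that of all genes. Without broiler 3 and Leghorn 3, chosen after seeing the data, 2983 genes and 5172 probe sets were higher; with fewer arrays, fewer comparisons must hold. With only probe sets of a mean log2 above 4, the median over all genes was 0.18 in place of 0.01; 25 of the 50 list medians then moved by more than the spread between arrays, and 35 kept their side of the median of all genes. Against the Fayoumi arrays 17 list medians moved and 44 kept their side. In that comparison 100 of the 103 named genes kept the sign of their difference. Those that did not include C4BPS, which turned to -0.0801, and IGFBP2, which turned to -0.996.

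For the lines, Fayoumi minus broiler had 500 probe sets when only those above background on at least 5 arrays were tested, which is fewer tests. Without broiler 1 and Leghorn 2, 661 probe sets passed for Leghorn minus broiler and 686 for Fayoumi minus broiler. Without the 5 arrays 1 probe set passed for Leghorn minus broiler, and 1 named gene, IGFBP2, for Fayoumi minus broiler. The pass of that gene was in part set by the choice of arrays. With 1 array left out the counts ran from 0 to 118 and from 148 to 613, both highest without broiler 1, and no named gene passed. The cause was not tested.

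With the replicate number as a block, 0 and 141 probe sets passed in place of 0 and 269. Same-numbered arrays had correlations from -0.815 to 0.624. Between broiler and Leghorn these were negative where a single array of the pair stood apart, and positive in the rest. The correlations thus follow the state and cannot show whether same-numbered arrays share more than a number. Array number limits every result, and values near background give no size of difference.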
